A study of Bos taurus with 12 samples.

Results

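The miRNAs of the imprinted DLK1-DIO3 locus were followed in extracellular vesicles (EVs), membrane-bound particles released by cells, that had been isolated from the blood plasma of beef heifers. Members were chosen by miRNA number: every entry of the deposited bovine miRNA table whose number is known from the locus, with any letter or arm, was taken. The rule found 53 of 783 entries. The animals were Charolais- and Limousin-cross heifers with synchronized estrous cycles, all sampled on Day 7 of the cycle. In the unstimulated (U) cycle they received no follicle-stimulating hormone (FSH), and in the superstimulated (S) cycle they had received decreasing FSH doses with prostaglandin, followed by artificial insemination. High (H) and low (L) responders had been selected from the treated heifers by the number of corpora lutea counted after the S cycle, so the H and L labels of the U libraries refer to a response that came later. The 12 small RNA libraries formed the groups UL, UH, SL and SH with 3 libraries each, and libraries with the same number (UL1 and SL1, for example) were taken to come from the same heifer. The study compared H with L responders within each cycle and S with U within each response group.

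In mammals the DLK1-DIO3 domain is imprinted: the protein-coding genes DLK1, RTL1 and DIO3 are expressed mainly from the paternal chromosome, and the long non-coding RNAs and miRNAs from the maternal one. A first set of these miRNAs lies antisense to RTL1, a retrotransposon-derived gene needed for placental development, and a second, larger set runs from miR-379 to miR-656. The miRNAs are best known from embryo, placenta, brain, muscle and mesenchymal cells. Plasma EVs mix vesicles of many sources, so that fewer vesicles from a source and less of a miRNA per vesicle cannot be told apart here.

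The RefSeq annotation of assembly ARS-UCD2.0 held a gene for all 53 entries, 52 of them between DLK1 and DIO3. The exception was miR-544b, which had 0 reads. Of the 53, 7 belonged to the antisense-Rtl1 group (miR-493, miR-665, miR-431, miR-433, miR-127, miR-432 and miR-136), 45 to the miR-379 to miR-656 group, and miR-370 lies between these groups. The mature sequences below, 5′ to 3′, belong to the 5 members with most reads and to 2 scarce members that passed the call threshold in a comparison, and show which RNAs carry the results. They are copied from the deposited table in its DNA alphabet, and capitals mark the seed (bases 2 to 8), the stretch by which a miRNA mainly recognises its targets.
miR-432: tCTTGGAGtaggtcattgggtgg
miR-127: tCGGATCCgtctgagcttggct
miR-379: tGGTAGACtatggaacgtagg
miR-382: gAAGTTGTtcgtggtggattcg
miR-411a: aTAGTAGAccgtatagcgtacg
miR-487b: aATCGTACagggtcatccactt
miR-411c-5p: gGTTGATCagagaacatacatt
None of these 7 seeds occurred in another of the 783 entries, so each of these miRNAs stood for a seed of its own. Over the 53 members there were 50 different seeds. Seeds were shared by miR-376a, miR-376b and miR-376d and by miR-544a and miR-544b, which had at most 1 read each. miR-379 and miR-411a, neighbours at the start of the second group, had the letters GTAGAC in common within bases 2 to 9, shifted by 1 base. These letters were found at that place in 3 of the 783 entries (0.383%).

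The locus supplied a small part of the EV miRNA reads. The deposited values were tags per 1000000 mapped reads, from which whole reads were calculated back. Libraries held 21466 to 77433 reads of known miRNAs (median 41190), and the fewest were in SH2 and the most in SH3. Together the members had 1169 of 534136 reads (0.219%). A read was found in at least 1 library for 24 of the 53 members (45.3%), and for 312 of the 730 other entries (42.7%). The detection limit used here, a read in no fewer than 2 of a group's 3 libraries, was reached by 13 members (24.5%) and 225 other entries (30.8%). The remaining 29 members had 0 reads in all 12 libraries. In the shallowest library, SH2, 0 reads allowed up to 3 reads, equal to 6.03 normalized reads, and in the deepest, SH3, 1.81 normalized reads. A normalized read is a read scaled by TMM factors to the mean depth. These limits and the Wilson intervals given below cover counting error only. Intervals of log2 fold changes come from the limma fits and follow the spread between libraries.

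Reads were concentrated in 5 members, miR-432, miR-127, miR-379, miR-382 and miR-411a, which together held 1048 of the 1169 reads (89.6%). By mean normalized reads they ranked 72nd, 76th, 89th, 106th and 128th among the entries of the table. miR-432, miR-127, miR-379 and miR-382 had reads in all 12 libraries and miR-411a in 11. Both leading miRNAs, miR-432 and miR-127, are neighbours in the antisense-Rtl1 group, and the other 5 members of that group had 0 to 3 reads in total. The antisense-Rtl1 group had 666 reads and the miR-379 to miR-656 group 492. The other 3 of the 5 belong to the miR-379 to miR-656 group, where miR-379 and miR-411a are its first entries and miR-382 lies in its second part.

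**Figure D1:**
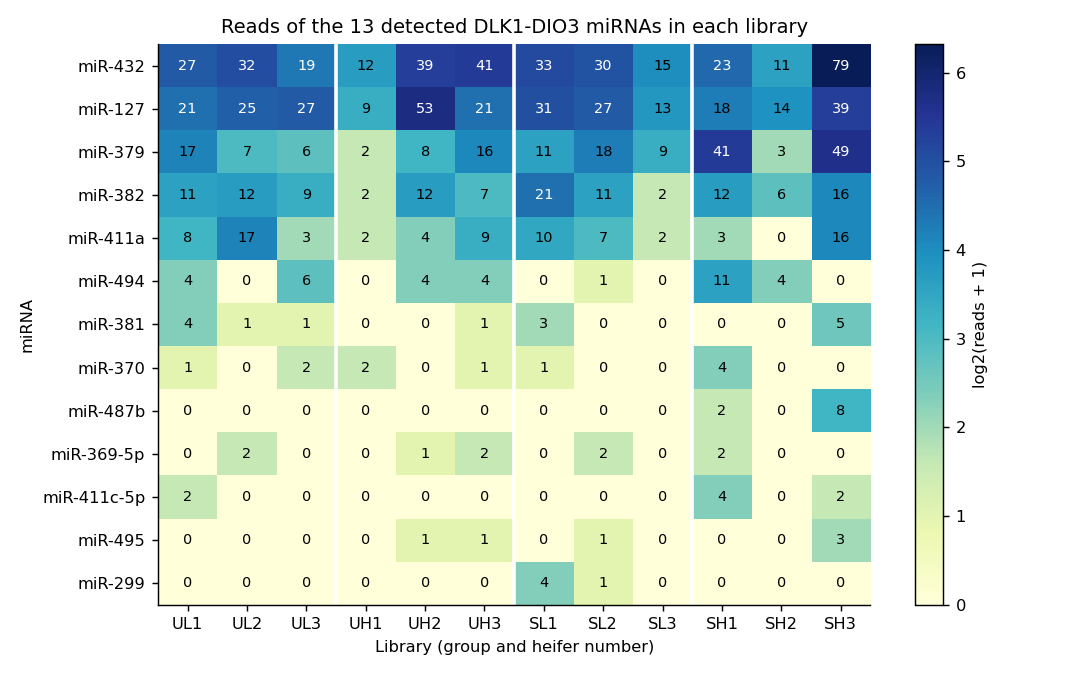
Reads of the 13 detected DLK1-DIO3 miRNAs (rows) in the 12 libraries (columns), with the number of reads in each cell and the colour giving log2(reads + 1). miR-432 and miR-127 had at least 9 reads in every library, miR-379 reached 41 and 49 reads in SH1 and SH3, and the lower 7 rows had at most 8 reads in any library.

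The summed reads of the locus were 96, 98 and 74 in UL, 29, 123 and 103 in UH, 115, 101 and 44 in SL, and 123, 38 and 225 in SH, for libraries 1, 2 and 3. As a share of known miRNA reads they were 0.233, 0.187 and 0.180% in UL and 0.0957, 0.166 and 0.197% in UH. In SL the shares were 0.358, 0.233 and 0.149%, and in SH 0.318, 0.177 and 0.291%. The lowest share, in UH1, had a 95% Wilson interval of 0.0667 to 0.137%, and the highest, in SL1, of 0.298 to 0.429%. SL1, SH1 and SH3 had the 3 highest shares, whereas SL3 and SH2 of the same cycle were among the 5 lowest.

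In normalized reads the locus sum was 88.5, 88.5 and 73.1 in UL, 42.6, 87.5 and 77.4 in UH, 141, 99.5 and 68.0 in SL, and 165, 76.4 and 135.5 in SH. Group means were 83.4 ± 8.88 in UL and 69.2 ± 23.6 in UH, against 103 ± 36.7 in SL and 125.7 ± 45.2 in SH (SD, n = 3 each). The ratio of group means was 0.830 for UH vs. UL, 1.22 for SH vs. SL, 1.82 for SH vs. UH and 1.23 for SL vs. UL. The libraries of the groups overlapped in all 4 comparisons, and the sum was not tested. The direction for UH vs. UL depended on the scaling, with a log2 ratio of −0.27 here and 0.026 when libraries were scaled by mapped reads. In 4 of the 6 heifers the sum was higher in the S cycle, with a median ratio of 1.36. Heifer H1 went from 42.6 to 165 normalized reads, while heifers H2 and L3 went from 87.5 to 76.4 and from 73.1 to 68.0. Without miR-379 the sum was higher in S in 3 of the 6 heifers, with a median ratio of 1.31. The ratios of group means were then 0.841 for UH vs. UL, 1.09 for SH vs. SL, 1.53 for SH vs. UH and 1.19 for SL vs. UL.

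Both groups of the locus differed in how much they varied. The antisense-Rtl1 sum was 47.4 ± 3.71 in UL and 47.6 ± 17.3 in UH, against 61.5 ± 15.6 in SL and 59.2 ± 10.7 in SH. The miR-379 to miR-656 sum was 35.0 ± 9.47 in UL and 20.3 ± 10.7 in UH, against 41.0 ± 20.7 in SL and 64.7 ± 38.6 in SH. For SH vs. UH the ratio of means was 1.24 for the first and 3.18 for the second group, and the libraries of SH and UH overlapped for both. In SH the second group had 103, 26.1 and 64.5 normalized reads, against 8.81, 22.1 and 30.1 in UH. SH1 and SH3 stood above all UH libraries and SH2 between UH2 and UH3. The second group made up 62.6% of the locus reads in SH1 and 47.6% in SH3, against 20.7 to 49.0% in the 10 other libraries, of which UL1 was the highest.

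**Figure D2:**
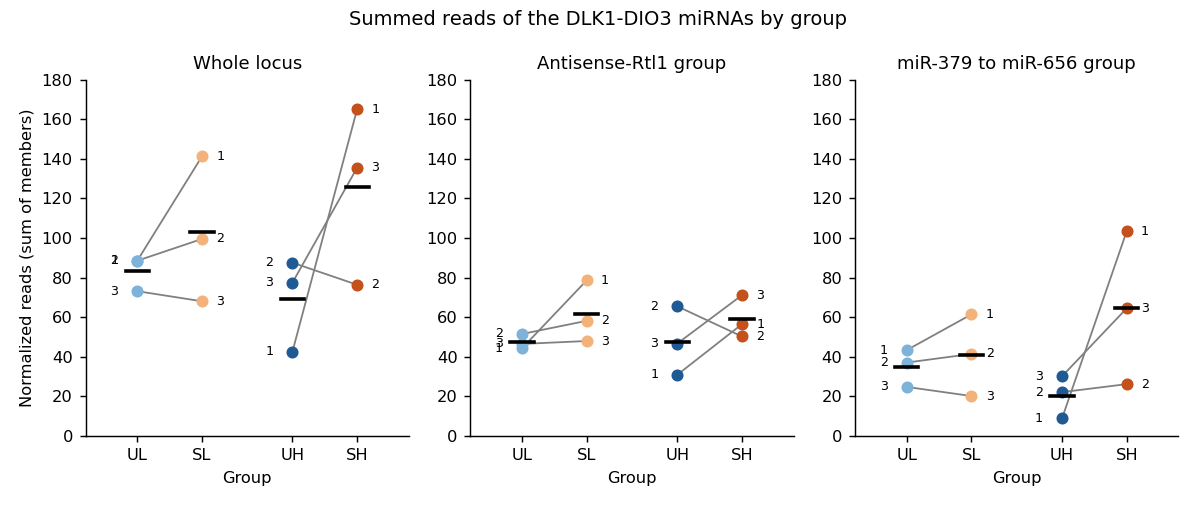
Summed normalized reads of all DLK1-DIO3 miRNAs (left), the antisense-Rtl1 group (middle) and the miR-379 to miR-656 group (right) in each library, with grey lines joining libraries of the same heifer number and black bars at the group means. SH1 and SH3 lie above all UH libraries in the left and right panels and SH2 does not, and every pair of groups compared overlaps in every panel.

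Between 5 (SH2) and 12 (SH1) members were detected per library with at least 1 read. The numbers were 10, 9 and 9 in UL, 6, 9 and 10 in UH, 9, 11 and 6 in SL, and 12, 5 and 11 in SH. Expected at the depth of the smallest library, 21466 reads, they were 6.85 to 8.71 in UL and 5.66 to 7.73 in UH, against 5.83 to 8.46 in SL and 5 to 10.8 in SH. By group, the detection limit was reached by 8 members in UL and 9 in UH, against 6 in SL and 8 in SH. These were 15.1, 17.0, 11.3 and 15.1% of the 53 members, against 25.7, 26.1, 23.2 and 21.8% of all 783 entries. The ranges over libraries overlapped between all groups.

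Differences were tested two-sided for each detected miRNA with limma on log2(normalized reads + 1), a scale on which the fold of scarce miRNAs comes out too small. The thresholds of the study were used. A miRNA was called when its log2 fold change was 1 or more in either direction with P, before adjustment, at 0.05 or below. The study applied them with edgeR, a test on counts, so its calls and those here can differ. It listed miR-487b and miR-494 as differing between SH and SL, miR-379 and miR-487b between UH and SH, and miR-494 between UL and SL. Exact permutation of 3 against 3 libraries has 0.1 as its smallest p.

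For UH vs. UL, which asks whether responders differed before treatment, 0 of 10 members tested by limma were called, and 0 reached the P threshold alone. Over all entries 6 of 227 miRNAs were called (2.64%). The median log2 fold change was −0.27 over the members and 0.04 over all miRNAs tested. With miRNAs at or under 3 reads in every library of a group set to the bound that 3 reads allow, these medians were −0.09 and 0. Values of the groups did not overlap for 2 members, both lower in UH, against 17 of 227 miRNAs (7.49%). These were miR-382 and miR-381, and for miR-381 the gap rested on single reads, with 4, 1 and 1 reads in UL and 0, 0 and 1 in UH. miR-381 passed the detection limit through UL alone, so only a gap with UH lower was possible.

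For SH vs. SL, the same question in the treated cycle, limma called 0 of 9 members and 0 reached the P threshold alone, against 11 of 201 miRNAs called (5.47%). The median log2 fold change was 0.29 over the members and −0.08 over all miRNAs, and 0 for both with bounds. The groups did not overlap for 0 members, and for 18 of 201 miRNAs (8.96%). Without SH2 3 members, miR-379, miR-411c-5p and miR-487b, were called, and 34 of 196 miRNAs. Of these members, miR-411c-5p and miR-487b had 0 reads in SL and passed the detection limit through SH alone.

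For SH vs. UH, 1 of 11 members was called, miR-487b, against 12 of 212 miRNAs (5.66%). This member passed the detection limit through SH alone. The median log2 fold change was 0.36 over the members and −0.14 over all miRNAs, and 0 for both with bounds. Groups did not overlap for 1 member, miR-382, higher in SH, and for 16 of 212 miRNAs (7.55%). For SL vs. UL, limma called 0 of 9 members and 0 reached the P threshold alone, against 5 miRNAs called over all entries (2.34% of those tested). The median was −0.0026 over the members and −0.07 over all miRNAs, and 0 for both with bounds. The groups did not overlap for 0 members and for 7.94% of all miRNAs tested. SH vs. SL and SH vs. UH share the SH libraries, as the other comparisons share theirs, so the same library enters more than 1 of these results.

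Averaged over H and L in a fit of all 4 groups, S vs. U gave 1 called member of 13, miR-379, against 11 of 238 miRNAs (4.62%). The median log2 fold change was 0.29 over the members and −0.13 over all miRNAs. A difference of the S minus U change between H and L was called for 1 of 13 members, miR-411c-5p, against 12 of 238 miRNAs (5.04%). In all 6 comparisons the number of members with a Benjamini-Hochberg adjusted P under 0.05 over all miRNAs tested by limma was 0. With 0 or 1 of 9 to 13 members called, a single call put the members' share above or below that of the whole table.

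miR-379, the first miRNA of the second group, was the member with the largest difference between cycles among the abundant ones. It had 17, 7 and 6 reads in UL, 2, 8 and 16 in UH, 11, 18 and 9 in SL, and 41, 3 and 49 in SH. In normalized reads these were 15.7, 6.32 and 5.93 in UL, 2.94, 5.69 and 12.03 in UH, 13.5, 17.7 and 13.9 in SL, and 55.1, 6.03 and 29.5 in SH. SH1 and SH3 were higher than all other libraries, SH2 was as low as the U libraries, and the groups overlapped in every comparison. Averaged over H and L it was higher in S by a log2 fold change of 1.23 (SE 0.51, limma adjusted P = 0.540). This call was lost in 6 of 12 fits with 1 library left out, those without UL2, UL3, UH1, SL2, SH1 or SH3, where the log2 fold change was 0.91 to 1.17, and also with mapped reads as library size (1.16). Normalized reads were higher in S in 5 of 6 heifers, with ratios of 18.8, 1.06 and 2.45 in H1 to H3 and 0.862, 2.81 and 2.35 in L1 to L3. For SH vs. UH its log2 fold change was 1.71 (SE 0.84, limma adjusted P = 0.736) and was not called, and with the heifer as a replicate block it was called (SE 0.76, limma adjusted P = 0.519). Without SH2 the log2 fold change was 2.56 (SE 0.81, limma adjusted P = 0.0344), and without SH1 it was 1.06 and not called. Calls rose over the whole table without SH2, to 24 of 209 miRNAs from 12 of 212. In that fit 12 miRNAs had a limma adjusted P under 0.05, against 0 with all libraries. For SL vs. UL the log2 fold change of miR-379 was 0.75 (SE 0.53), for SH vs. SL 0.52 (SE 0.74) and for UH vs. UL −0.43 (SE 0.70).

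The ratio of miR-379 to miR-127 reads, which does not depend on how libraries were scaled, was 0.810, 0.280 and 0.222 in UL, 0.222, 0.151 and 0.762 in UH, 0.355, 0.667 and 0.692 in SL, and 2.28, 0.214 and 1.26 in SH. It was over 1 in SH1 and SH3 and under 1 in the other 10 libraries. This pair of miRNAs was chosen after its values were seen. The ratio of miR-379 to miR-432 reads was over 1 in SH1 alone, with 1.78, whereas SH3 had 0.620, about the same as 0.630 in UL1 and 0.600 in SL2 and SL3.

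miR-432, the member with most reads, had 27, 32 and 19 reads in UL, 12, 39 and 41 in UH, 33, 30 and 15 in SL, and 23, 11 and 79 in SH. In normalized reads its group means were 24.2 ± 5.10 in UL and 25.4 ± 6.91 in UH, against 31.1 ± 8.77 in SL and 33.5 ± 12.9 in SH. All groups overlapped. Its log2 fold change was 0.05 (SE 0.43) for UH vs. UL, 0.07 (SE 0.47) for SH vs. SL, 0.36 (SE 0.57) for SH vs. UH and 0.33 (SE 0.36) for SL vs. UL. The 95% interval for S vs. U averaged over H and L ran from −0.30 to 0.99 around 0.35.

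miR-127, which lies antisense to RTL1 and pairs perfectly with its transcript, had 21, 25 and 27 reads in UL, 9, 53 and 21 in UH, 31, 27 and 13 in SL, and 18, 14 and 39 in SH. Its group means lay close together, with 22.9 ± 3.67 normalized reads in UL and 22.2 ± 13.5 in UH, against 28.3 ± 9.10 in SL and 25.3 ± 2.504 in SH. The highest and lowest libraries, SL1 with 38.1 and UH1 with 13.2, belonged to different groups, but UH2 had 37.7, so UH alone spanned nearly the whole range. The log2 fold change was −0.17 (SE 0.48) for UH vs. UL, −0.11 (SE 0.46) for SH vs. SL, 0.32 (SE 0.61) for SH vs. UH and 0.26 (SE 0.37) for SL vs. UL. For S vs. U averaged over H and L it was 0.29, with a 95% interval from −0.40 to 0.98.

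miR-382 had 11, 12 and 9 reads in UL, 2, 12 and 7 in UH, 21, 11 and 2 in SL, and 12, 6 and 16 in SH. In normalized reads UH, with 2.94, 8.54 and 5.26, lay below UL, with 10.1, 10.8 and 8.89, and below SH, with 16.1, 12.1 and 9.64. The SL libraries, with 25.8, 10.8 and 3.09, overlapped with those of the other 3 groups. Libraries did not overlap for UH vs. UL and SH vs. UH, but neither difference passed the test, with log2 fold changes of −0.82 (SE 0.65, limma adjusted P = 0.929) and 1.112 (SE 0.79, limma adjusted P = 0.768). The UH libraries stand in both comparisons. For SH vs. SL the log2 fold change was 0.29 (SE 0.76), for SL vs. UL −0.0026 (SE 0.69) and for S vs. U averaged over H and L 0.55 (SE 0.49).

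miR-411a had 8, 17 and 3 reads in UL, 2, 4 and 9 in UH, 10, 7 and 2 in SL, and 3, 0 and 16 in SH. Although it lies next to miR-379, its normalized reads were 4.03, 0 and 9.64 in SH, of which SH2 lay below UL (2.96 to 15.4) and the other 2 within it. Its log2 fold change was −0.74 (SE 0.75) for UH vs. UL, −1.001 (SE 0.97) for SH vs. SL, −0.38 (SE 0.95) for SH vs. UH, −0.11 (SE 0.73) for SL vs. UL and −0.25 (SE 0.64) for S vs. U averaged over H and L. It was not called in any of them.

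**Figure D3:**
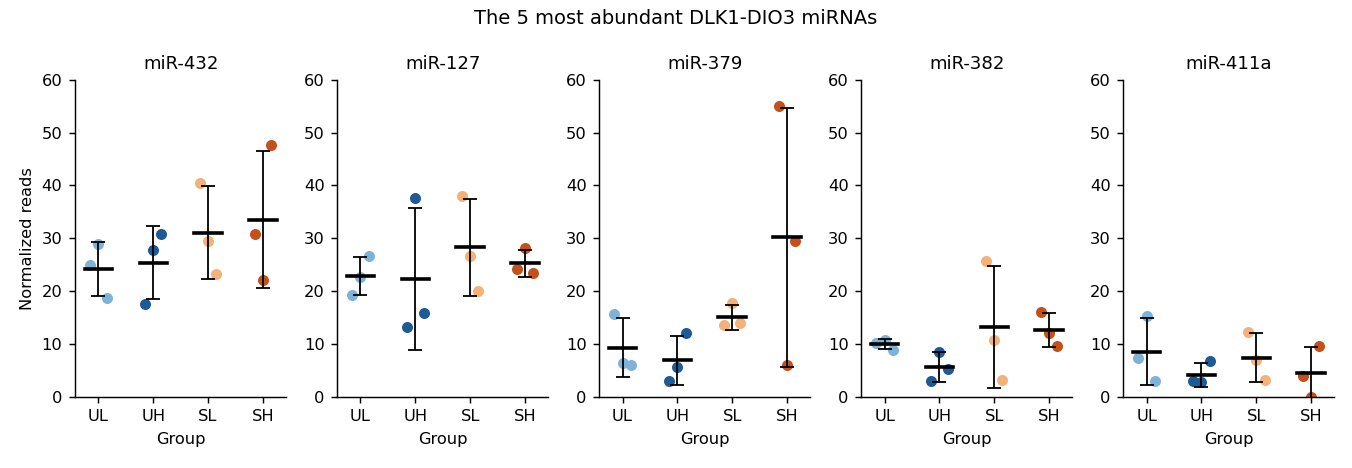
Normalized reads of the 5 DLK1-DIO3 miRNAs with most reads, with coloured points for the 3 libraries of each group, a thick bar at the mean and error bars of 1 SD. For miR-379 the SH libraries lie at 55.1, 6.03 and 29.5, whereas for miR-127 they lie between 23.5 and 28.1, and for miR-382 the UH points lie below those of UL and SH.

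**Figure D4:**
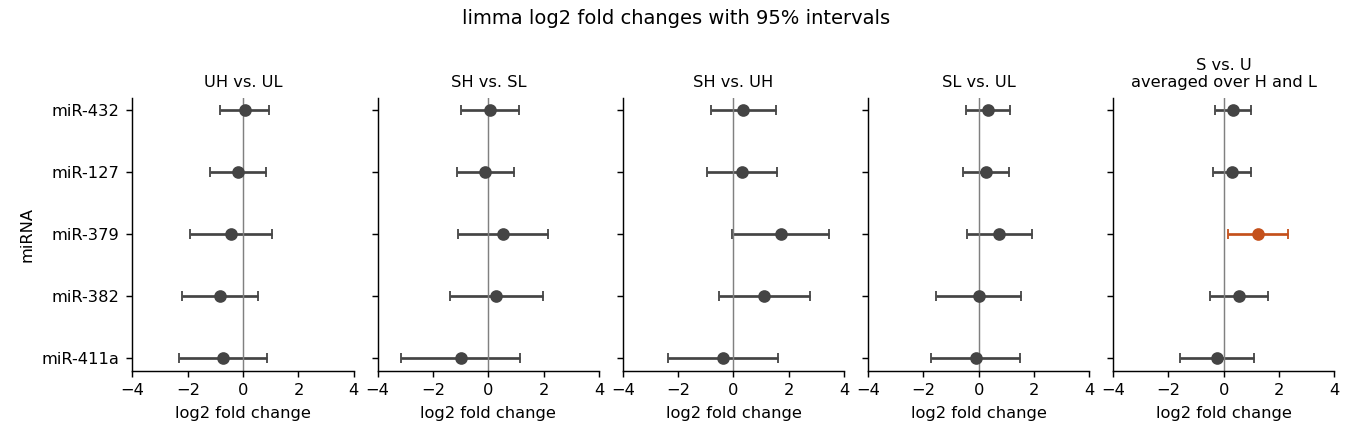
Log2 fold changes (points) with 95% intervals (bars) from limma on log2(normalized reads + 1) for the same 5 miRNAs in 5 comparisons, the first-named group minus the second, with the called value in orange. The only called value among them is that of miR-379 for S vs. U averaged over H and L, 1.23, and the intervals of the other values include 0.

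Of the scarce members, 2 were called in a comparison. miR-487b had 2 and 8 reads in SH1 and SH3 and 0 in the 10 other libraries. With 0 reads in UH, it passed the detection limit through SH alone and could only come out higher there. It was called as higher in SH vs. UH (log2 fold change 1.47, SE 0.69, limma adjusted P = 0.736). This fitted value depends on the pseudocount. Against the 3 reads that each UH library allows at 0, the SH mean gave a ratio of 0.853, so no fold could be stated at this depth. The call was lost with the heifer as a replicate block (SE 0.71, limma adjusted P = 0.599). It was also lost when UH1, UH2 or UH3 was left out, and was present without SH2. Without SH1 or SH3 it fell under the detection limit and was not tested.

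miR-411c-5p had 4 and 2 reads in SH1 and SH3, 2 in UL1 and 0 in the 9 other libraries. It passed the detection limit through SH alone. Its S minus U change differed between H and L by 1.77 on the log2 scale (SE 0.84, limma adjusted P = 0.847), from a change of 1.27 in H heifers with 0 reads in UH. The bound ratio for SH vs. UH was 0.748, so no fold could be stated either. The call was present without UL2, UL3 or SH2 and lost without UL1 or any of the UH or SL libraries. Without SH1 or SH3 it was not tested, since it fell under the detection limit.

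The other detected members are given by their reads, with fit values for miR-494, which the study listed. miR-494 had 4, 0 and 6 reads in UL, 0, 4 and 4 in UH, 0, 1 and 0 in SL, and 11, 4 and 0 in SH. The groups overlapped in all comparisons. miR-381 had 4, 1 and 1 reads in UL, 1 in UH3, 3 in SL1 and 5 in SH3. miR-370, alone between both groups, had 1, 0 and 2 reads in UL, 2, 0 and 1 in UH, 1 in SL1 and 4 in SH1. miR-369-5p had at most 2 reads in any library, and miR-495 at most 3. miR-299, next to miR-411a in the locus, was found in SL1 with 4 reads and SL2 with 1 and had 0 in the 10 other libraries. SH1 and SH3 each held 26 reads of members other than the 5 abundant ones, against 2 to 12 in the other libraries. SH3 was the deepest library. In normalized reads these members had 34.9 in SH1 and 15.7 in SH3, against 2.94 to 11.1 in the other libraries.

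A further 11 members had a read in fewer than 2 of 3 libraries of every group. Their highest counts were 4 reads for miR-411c-3p and miR-154c, both in SH3, 3 for miR-433 (SL3), and 2 for miR-493 (SL2) and miR-485 (SH1). miR-136, miR-154a, miR-154b, miR-369-3p, miR-376a and miR-376b had 1 read each. Of 8 other entries that RefSeq places in the locus but that the rule leaves out, 3 had reads. miR-1247-3p had 3 reads in all, miR-134 had 1 and miR-3956 had 1, which is 5 reads beside the 1169 of the members.

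In the libraries with the highest locus sums, the summed miRNAs known from mesenchymal cells were high as well. The 7 entries of miR-143, miR-145, miR-199 and miR-214 all had reads, and their summed normalized reads were 187, 102 and 110 in UL, 128, 105 and 290 in UH, 558, 106 and 167 in SL, and 1269, 94.4 and 761 in SH. SH1, SH3 and SL1 were the 3 highest for this list and for the locus, and SH2 was the lowest for this list. The sum of the list was led by miR-199a-3p, with 996 and 416 normalized reads in SH1 and SH3 and 35.6 to 450.7 in the other libraries. miR-143 was also highest in SH1 and SH3, with 119.5 and 206.03 normalized reads, but not in SL1, with 36.8 against 71.9 in UL1. The other members did not all follow: miR-145 had 5.37 in SH1 and 11.05 in SL1, against 81.3 in SH3 and 4.02 to 34.2 in the other 9 libraries, and miR-214 had 2.69 in SH1, 4.22 in SH3 and 6.14 in SL1, against 0 to 3.95 elsewhere. The endothelial miR-126 entries moved the other way, with 2242 and 1686 normalized reads in SH1 and SH3 and 3523 to 11880 in the other libraries. Their part in the locus result was not tested.

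**Figure D5:**
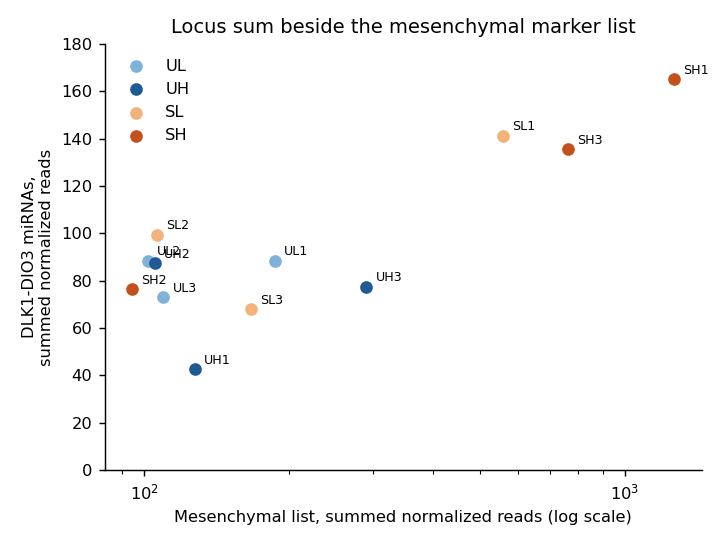
Summed normalized reads of the DLK1-DIO3 miRNAs (y axis) against those of the mesenchymal list (x axis, log scale) in the 12 libraries, coloured by group. SL1, SH3 and SH1 stand apart with 558 to 1269 on the x axis and 135.5 to 165 on the y axis, and the other 9 libraries have at most 290 and 99.5.

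Lymphoid miR-150 was lowest in SH1 and SH3 as well, with 690 and 722 normalized reads, against 823 to 2108 in the other libraries. The sum of the erythroid miRNAs (miR-451, miR-486, miR-144) was highest in SH3 with 8362 normalized reads, against 982 to 2756 elsewhere. Nearly all of it was miR-486, with 8318 in SH3, whereas miR-451 had 43.4 in SH3 and 45.2 in UL1, and miR-144 had 0.602 in SH3 and 7.37 in UL1. Muscle miRNAs (6 of 8 entries with reads) were highest in UL1 with 1717, against 39.1 to 166. Platelet and myeloid miR-223 ranged from 356 to 1008 and liver miR-122 from 48.2 to 641. Their part in the results was not tested. Without SH3, 1 member was called for SH vs. UH (miR-494), and without UL1, 1 for SL vs. UL (miR-379).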

How the data were processed

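Groups were taken from the sample titles. Per the labels and methods, the authors prepared libraries with unique molecular identifiers (UMIs), used Cutadapt for trimming and collapsing, Bowtie2 2.2.2 for mapping to UMD3.1, annotated perfect matches with miRBase and tested with edgeR after TMM. The deposited values, treated as a score, were tags per 1000000 mapped reads with decimals dropped. Each was the whole part of a read number times a step per library, and 783 of 783 values per library were reproduced from whole reads. The number of columns unused was 0.

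TMM factors over the 12 libraries were calculated with Python 3.11.15. Two-sided limma 3.58.1 (R 4.3.3; lmFit, eBayes with trend) was fitted to log2(normalized reads + 1) over all miRNAs that had a read in no fewer than 2 of the 3 libraries of any group compared. A log-scale test was chosen because the deposited unit is a cut normalized value. It was run on the reads calculated back, and a count test on these reads was not run. Only the groups compared entered a fit, except for S vs. U and the difference between H and L. The fit function was run on simulated reads with known changes, scaled by library size. Recovery was required there only for miRNAs with more reads than most detected members had. It therefore does not cover the scarce members.

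The members, lists and tests were chosen with earlier results of these data known. Members detected in a group were named, with fit values for those with a mean of at least 5 reads or a call and for miR-494, which the study listed. The methods sampled each heifer in both cycles, so U and S libraries of a number were taken to come from the same heifer. Correlations of their deviations from group means over 238 miRNAs were 0.05, 0.21 and 0.13 in H and 0.10, 0.06 and −0.05 in L, against −0.24 to 0.15 for 12 pairs with different numbers. Of 12 pairs of replicates, 0 agreed within sampling noise by a chi-square test (P over 0.05), so all were counted. Alternatives were other scalings, filters and pseudocounts, no trend, the replicate block, all 4 groups in a fit, and leaving out each library.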

Additional observations from a re-analysis of the deposited data

Results flagged for a closer look

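The change between cycles of miR-411c-5p differed between response groups: the S minus U log2 change was larger in H than in L heifers by 1.77 (SE 0.84, limma adjusted P = 0.847). It rests on 8 reads in 3 libraries, SH1, SH3 and UL1, and miR-411c-5p passed the detection limit through SH alone. With 1 library left out at a time it was 1.27 to 2.41 in 10 fits, of which 3, those without UL2, UL3 or SH2, kept the call. Without SH1 or SH3 it fell under the detection limit and was not tested.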

How the results depend on the processing

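The number of members called lay between 0 and 3 under all settings. For UH vs. UL it stayed at 0 throughout, with 2 to 10 miRNAs called over all entries. For SH vs. SL it was 1 (miR-487b) and for SL vs. UL 1 (miR-299) with all 4 groups in the same fit. For SH vs. UH it was 0 with library sizes without TMM, a minimum of 10 reads, a pseudocount of 2 or 0.5 or no trend. Members called were 2 (miR-379 and miR-487b) without a filter (15 of 298 miRNAs called) or with all 4 groups (17 of 212, against 12 of 212). With median-of-ratios factors the number of members stayed at 1, but the call was miR-379 in place of miR-487b (10 of 212 miRNAs called). For S vs. U it was 0 with mapped reads as library size (6 of 238 miRNAs called). For the difference between H and L it was 0 with median-of-ratios factors, library sizes without TMM, a minimum of 10 reads, a pseudocount of 2 or no trend. Over all entries 4 to 13 miRNAs were called under these settings. Without a filter 2 members were called, against 10 of 336 miRNAs. Leaving out 1 library gave 0 to 3 for both SH vs. SL and SH vs. UH and 0 to 1 for SL vs. UL. It gave 0 to 2 for S vs. U and for the difference between H and L. Where 1 call remained, its miRNA could change. For SH vs. UH it was miR-379 without UH3 (12 of 186 miRNAs called) and miR-494 without SH3 (16 of 207). For the difference it was miR-299 without SL3 (11 of 236) and miR-494 without SH3 (9 of 235). The call of miR-379 for S vs. U was lost without UL2, UL3, UH1, SL2, SH1 or SH3. The cause was not tested.

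With the replicate block, SH vs. UH again had 1 call, miR-379 (limma adjusted P = 0.519) in place of miR-487b, and S vs. U and the difference between H and L kept 1 call each. Over all miRNAs the block gave 15 calls in place of 12 for SH vs. UH and 3 in place of 5 for SL vs. UL.

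The ratios of locus sums moved by less than 1 SD of the log2 sums within groups under all alternatives. They kept their direction, except UH vs. UL with mapped reads as library size (log2 ratio 0.026). Several nevertheless came close to 0 when 1 library was left out. The log2 ratio went from 0.30 to 0.0066 for SL vs. UL without SL1 and from 0.29 to 0.042 for SH vs. SL without SH1. For UH vs. UL it went from −0.27 to −0.015 without UH1. For SH vs. UH it stayed between 0.61 and 1.12. With at least 5 reads required, 5 members were detected in UL, 4 in UH and 4 in SH. Log2 fold changes of some uncalled members changed sign. These were not all near 0: miR-379 for SH vs. SL went from 0.52 to −0.12 without SH1. With library sizes without TMM, miR-432 was at −0.054 (UH vs. UL) and −0.069 (SH vs. SL). With mapped reads miR-127 was at 0.039 for SH vs. SL, and miR-382 for SL vs. UL was at 0.0125 with median-of-ratios factors and 0.0325 with a pseudocount of 2. Leaving out 1 library gave −0.62 to 0.11 (miR-127) and −0.11 to 0.28 (miR-432) for UH vs. UL. For SH vs. SL it gave −0.33 to 0.12 (miR-127), −0.12 to 1.38 (miR-379), −0.42 to 0.94 (miR-382) and −0.21 to 0.33 (miR-432). miR-411a ranged from −1.13 to 0.58 for SH vs. UH, −0.63 to 0.39 for SL vs. UL and −0.62 to 0.23 for S vs. U, and miR-382 from −0.65 to 0.70 for SL vs. UL.

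Mapped reads as library size moved the median of all miRNAs by 0.13 (UH vs. UL) and 0.15 (SH vs. SL), and library sizes without TMM by −0.14 for SH vs. SL. Relative to that median, the members' median was −0.24 to −0.33 (UH vs. UL) and 0.35 to 0.38 (SH vs. SL) over the 4 scalings. Depth limited the scarce members most: 8 of the 13 had a mean under 5 reads.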
